A study of Rattus norvegicus with 24 samples.

Results

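The genes described here encode Fc receptors and the signalling proteins of the immunoreceptor tyrosine-based activation motif (ITAM). They were chosen by name and were Fcgr1a, Fcgr2b, Fcer1g, Lyn, Syk, Btk, Plcg2, Vav1 and Inpp5d, 9 genes of the 26641 named loci among the 42334 loci of the series. Where a name was listed at several loci, the locus with the highest mean over the 24 libraries was used, which concerned Inpp5d alone.

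Messenger RNA was sequenced from 2 brain regions, the cortex around the lesion (perilesional) and the thalamus of the injured side (ipsilateral), of adult male Sprague-Dawley rats 3 months after traumatic brain injury (TBI) or a sham operation. TBI was induced by lateral fluid percussion, a pressure pulse onto the exposed dura, and the sham-operated rats had anesthesia and craniectomy without the pulse. There were 6 TBI and 6 sham-operated rats, with 1 library per rat and region. The TBI rats had been selected for an enhanced T2-weighted signal around the lesion, so they represent rats with chronic perilesional inflammation and not all injured rats.

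Fc receptors bind the constant part of antibodies. Activating receptors such as Fcgr1a signal through the ITAM of the Fcer1g gamma chain, which Src family kinases such as Lyn phosphorylate and to which Syk then binds. Syk and Btk act on Plcg2, which releases calcium through inositol trisphosphate, and on Vav1, which activates Rac and reshapes the actin cytoskeleton during phagocytosis. Fcgr2b carries an inhibitory motif (ITIM) and recruits Inpp5d, a lipid phosphatase that removes the membrane lipid on which Btk and Plcg2 depend. In the brain these genes are known mainly from microglia, which also use the same kinases behind Trem2 and Tyrobp.

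The values are fragment counts divided by the authors' size factor for each library, called normalized counts here. The libraries held 30568927 to 54608921 fragments, with a median of 39660889, and 3 fragments corresponded to 2.06 to 3.76 normalized counts depending on the library. TBI and sham-operated rats were compared by limma on log2(normalized count + 1), and a change was called at a Benjamini-Hochberg adjusted p under 0.05 over all loci tested. SE is the standard error of a log2 fold change. All 9 genes had a mean above the minimum of 10 normalized counts in every comparison. The files give no transcript lengths, so levels were compared between groups and not between genes. In these bulk samples, more cells of a type and more RNA per cell cannot be told apart.

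The loci lay on chromosome 2 (Fcgr1a, XLOC_022381, 217916295 to 217925213), chromosome 13 (Fcer1g, XLOC_011820, 94228760 to 94233559), chromosome 5 (Lyn, XLOC_029751, 21307088 to 21423245), chromosome 17 (Syk, XLOC_016989, 14703907 to 14774836) and chromosome X (Btk, XLOC_042068, 105250296 to 105287881). Plcg2 was listed on chromosome 19 (XLOC_019128, 60828450 to 60962624), and Vav1 on chromosome 9 (XLOC_040005, 8625348 to 8682529). Inpp5d was also on chromosome 9 (XLOC_039739, 94464376 to 94570173). Fcgr2b (XLOC_011810) was listed on chromosome 13 with a span from 93924703 to 94068497 that the files repeat for the neighboring paralogs Fcgr2a and Fcgr3a. The span is therefore that of a group of loci, and fragments from stretches shared by these paralogs could have been assigned to any of them. The positions are given as deposited. The annotation was Ensembl of Rnor_5.0, the methods name RGSC3.4 as the genome, and the files state neither a build nor whether counting starts at 0 or 1.

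Promoter sequences of 300 bases, from 250 before to 50 after the transcription start in RefSeq (GRCr8), were matched by symbol for 5 of the 9 genes: Vav1, Inpp5d, Syk, Plcg2 and Btk. Entries for Fcgr1a, Fcgr2b, Fcer1g and Lyn were not matched. The letters GAGGAA, the core of sites bound by the myeloid factor Spi1, occurred on either strand in 5 of these 5 promoters and in 27.6% of 33469 promoters of the same length. The longer GAGGAAGT, which contains GAGGAA, occurred in Vav1 and Inpp5d and in 2.42% of all promoters. TGANTCA, the site of Fos and Jun, and a motif of the NF-κB family occurred in 0 of the 5 and in 7.33% and 1.53% of all promoters. A match describes the letters and does not show binding. Below are the promoter of Vav1, which had the largest change of the 9 genes in the cortex, that of Inpp5d, which differed most between the regions, and that of the central kinase Syk, with GAGGAA or its reverse complement in capitals.
Vav1, chr9:2248705-2249004, plus strand: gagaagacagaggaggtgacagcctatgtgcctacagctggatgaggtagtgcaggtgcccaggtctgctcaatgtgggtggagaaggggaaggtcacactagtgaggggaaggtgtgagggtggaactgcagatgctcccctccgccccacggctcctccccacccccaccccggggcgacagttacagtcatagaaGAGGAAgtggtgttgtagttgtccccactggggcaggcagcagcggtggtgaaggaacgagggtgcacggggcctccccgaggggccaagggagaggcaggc
Inpp5d, chr9:95735283-95735582, plus strand: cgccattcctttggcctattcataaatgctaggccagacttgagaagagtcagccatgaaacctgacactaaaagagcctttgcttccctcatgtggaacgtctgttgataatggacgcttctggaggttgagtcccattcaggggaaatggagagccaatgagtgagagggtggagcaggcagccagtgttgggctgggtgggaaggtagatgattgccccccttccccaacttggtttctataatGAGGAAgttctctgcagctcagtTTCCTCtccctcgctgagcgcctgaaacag
Syk, chr17:12813224-12813523, minus strand: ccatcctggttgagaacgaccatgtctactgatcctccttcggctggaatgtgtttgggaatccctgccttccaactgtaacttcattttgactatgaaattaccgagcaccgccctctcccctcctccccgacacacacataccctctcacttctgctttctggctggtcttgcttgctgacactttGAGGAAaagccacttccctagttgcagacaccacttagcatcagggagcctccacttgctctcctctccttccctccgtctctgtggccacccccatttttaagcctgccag
The match began 52 bases before the transcription start in Vav1, 3 bases before it in Inpp5d and 62 bases before it in Syk. Inpp5d had another match on the opposite strand, 20 bases after the start.

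Of the receptors, Fcgr2b had the largest change in the thalamus. Its normalized count in sham thalamus ranged from 156 to 283 with a median of 228, and in TBI thalamus from 523 to 883 with a median of 703. All 6 TBI values lay above all 6 sham values, and the fold change was 3.16 (log2 fold change 1.66, SE 0.14, limma adjusted p = 1.3e-06). In the cortex Fcgr2b ranged from 220 to 343 (median 260) in sham-operated rats and from 363 to 508 (median 481) in TBI rats. These values did not overlap either, with a log2 fold change of 0.77 (SE 0.12, limma adjusted p = 0.00031). The 4 groups followed the order sham thalamus, sham cortex, TBI cortex and TBI thalamus, and the sham groups alone overlapped as neighbors.

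Fcgr1a, the high-affinity activating receptor for IgG, ranged in the thalamus from 68.5 to 92.6 normalized counts (median 85.1) in sham-operated rats and from 106 to 166 (median 154) in TBI rats, without overlap. Its log2 fold change was 0.82 there (SE 0.13, limma adjusted p = 0.00023). In the cortex the range was 70.8 to 128 (median 90.8) in sham-operated rats and 116 to 153 (median 128) in TBI rats, and 3 of 6 TBI values lay above every sham value. The log2 fold change of 0.48 passed the threshold in the cortex (SE 0.15, limma adjusted p = 0.023). The limma adjusted p was 0.0531 without sham rat 26, 0.0531 without sham rat 34 and 0.0517 without TBI rat 45, so the call rested on these libraries.

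The ratio of Fcgr2b to Fcgr1a normalized counts was 1.84 to 3.50 in sham and 4.35 to 5.73 in TBI thalamus, and in the cortex it was 1.88 to 3.68 and 2.85 to 4.29. The ratios of the thalamus did not overlap between TBI and sham and those of the cortex did. The ratio depends on gene length and capture, so only its difference between groups can be read. The paralogs that share the Fcgr2b span, both activating receptors, also rose. In the thalamus the log2 fold change was 0.95 for Fcgr2a (SE 0.12, adjusted p = 4.1e-05) and 1.16 for Fcgr3a (SE 0.15, adjusted p = 4.2e-05, both by limma).

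Fcer1g, the ITAM-bearing chain shared by activating Fc receptors, ranged from 627 to 813 normalized counts (median 680) in sham and from 1485 to 2023 (median 1671) in TBI thalamus. The cortical range was 496 to 634 (median 541) in sham-operated rats and 767 to 1076 (median 960) in TBI rats. Neither region had an overlap between TBI and sham. The log2 fold changes were 1.27 in the thalamus (SE 0.087, adjusted p = 2.2e-07) and 0.77 in the cortex (SE 0.085, adjusted p = 2.4e-05, both by limma). Values of the neighboring groups sham cortex, sham thalamus and TBI cortex overlapped in that order, and TBI thalamus stood above all others.

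**Figure D1:**
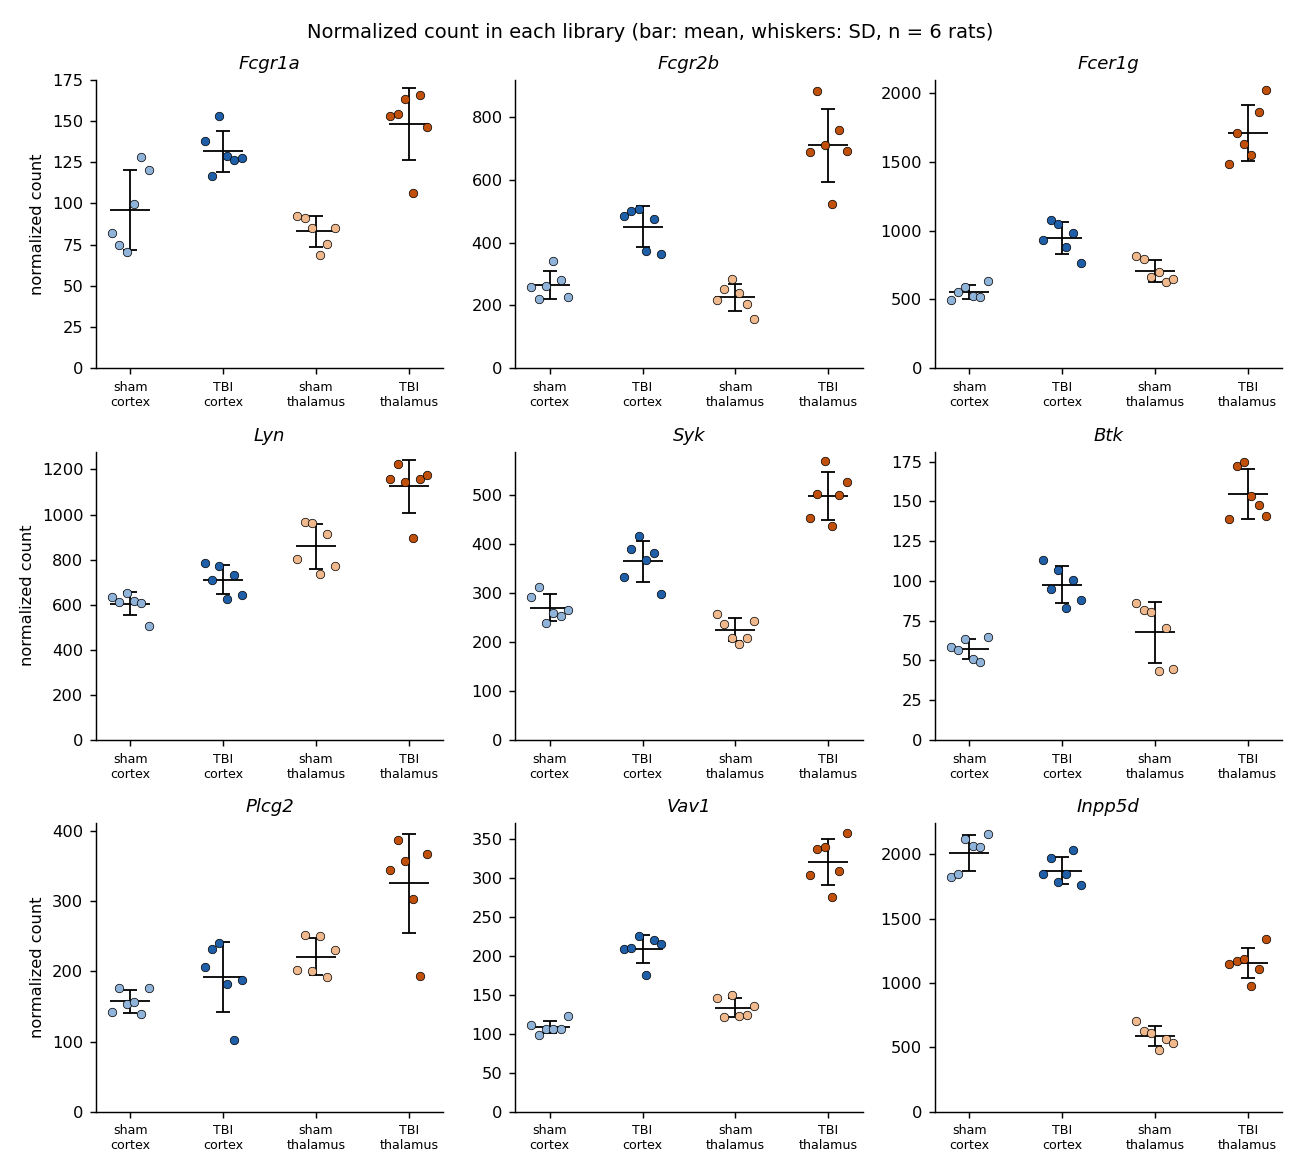
Normalized count (vertical axes, starting at 0 and scaled for each gene) of the 9 genes in each of the 24 libraries by group. Points are rats in the order of their numbers, bars are means and whiskers are SD (n = 6); TBI thalamus is highest for every gene except Inpp5d, for which both cortex groups lie above both thalamus groups.

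The kinases followed with unequal sizes. Syk, which docks on phosphorylated ITAMs, ranged from 196 to 257 normalized counts (median 222) in sham and from 438 to 570 (median 501) in TBI thalamus, without overlap (log2 fold change 1.15, SE 0.089, limma adjusted p = 6.4e-07). In the cortex Syk ranged from 238 to 311 (median 262) and from 299 to 415 (median 375), and 5 of 6 TBI values exceeded every sham value (log2 fold change 0.43, SE 0.092, limma adjusted p = 0.0031).

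Btk, a Tec family kinase recruited by membrane lipids, had low counts. It ranged from 43.6 to 85.9 (median 75.3) in sham and from 139 to 175 (median 150) in TBI thalamus. Its cortical values ran from 49.2 to 64.6 (median 57.4) in sham-operated rats and from 82.7 to 113 (median 97.7) in TBI rats. There was no overlap in either region, and the log2 fold changes were 1.23 in the thalamus (SE 0.18, adjusted p = 0.00014) and 0.76 in the cortex (SE 0.12, adjusted p = 0.00029, both by limma). The sham thalamus values were the most spread of any group for this gene, with a coefficient of variation of 28.1% against 10.1% in TBI thalamus.

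Lyn, the Src family kinase that can phosphorylate both ITAMs and ITIMs, had the smallest change of the genes that passed the threshold in each region. Its normalized count ranged from 738 to 966 (median 858) in sham and from 894 to 1224 (median 1158) in TBI thalamus, and 5 of 6 TBI values lay above every sham value (log2 fold change 0.39, SE 0.089, limma adjusted p = 0.0037). In the cortex the ranges were 507 to 651 (median 614) and 626 to 787 (median 721), with 4 of 6 TBI values above every sham value. The cortical log2 fold change was 0.23 (SE 0.076, limma adjusted p = 0.032). The cortical call was lost without sham rat 38 (limma adjusted p = 0.0505), sham rat 55 (0.0653), TBI rat 22 (0.0728), TBI rat 45 (0.0712) or TBI rat 56 (0.0581).

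Of the effectors, Vav1 had the largest change of the 9 genes in the cortex. Vav1 ranged from 98.6 to 122 normalized counts (median 106) in sham and from 175 to 225 (median 213) in TBI cortex, and from 122 to 150 (median 129.8) in sham and 275 to 357 (median 324) in TBI thalamus. TBI and sham values did not overlap in either region, and the 4 groups were ordered as sham cortex, sham thalamus, TBI cortex and TBI thalamus with overlap between the sham groups only. The log2 fold change was 0.94 in the cortex (SE 0.088, adjusted p = 7.0e-06) and 1.26 in the thalamus (SE 0.091, adjusted p = 4.0e-07, both by limma).

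Plcg2, the phospholipase downstream of Syk and Btk, was the most variable gene among TBI rats. In the cortex it ranged from 139 to 177 normalized counts (median 155) in sham-operated rats and from 102 to 240 (median 197) in TBI rats. TBI rat 56 was under every sham value and the other 5 TBI rats were above every sham value. The log2 fold change of 0.24 did not pass the threshold (SE 0.17, limma adjusted p = 0.30), and without rat 56 it was 0.41 (SE 0.11, limma adjusted p = 0.011). In the thalamus the range was 191 to 252 (median 216) in sham-operated rats and 193 to 386 (median 351) in TBI rats, with rat 56 again lowest at 193 and the next TBI rat at 302. The thalamic log2 fold change was 0.53 (SE 0.15, limma adjusted p = 0.014) and 0.67 without rat 56. Of the 9 genes, Plcg2 was the only member for which rat 56 was lowest among TBI rats, and this held in both regions.

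Inpp5d, the phosphatase that opposes Btk and Plcg2, was the gene whose cortical log2 fold change was under 0, and like Plcg2 it did not pass the threshold there. Its normalized count ranged from 1823 to 2157 (median 2063) in sham and from 1761 to 2030 (median 1846) in TBI cortex. These values overlapped, and the log2 fold change was -0.10 (SE 0.056, limma adjusted p = 0.19). In the thalamus the range was 480 to 702 (median 589) in sham-operated rats and 978 to 1343 (median 1159) in TBI rats, without overlap (log2 fold change 0.98, SE 0.093, limma adjusted p = 3.4e-06). Both thalamus groups lay under both cortex groups. As a ratio to Vav1, Inpp5d was 16.3 to 19.9 in sham cortex, 7.94 to 10.5 in TBI cortex, 3.89 to 5.16 in sham thalamus and 3.47 to 3.78 in TBI thalamus.

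The second locus that carries the name Inpp5d (XLOC_040528) was listed with the same span. Its normalized count ranged from 875 to 990 (median 946) in sham and from 489 to 748 (median 633) in TBI cortex, without overlap (log2 fold change -0.61, SE 0.10, limma adjusted p = 0.00058). In the thalamus it was near the detection limit, from 1.98 to 8.76 in sham-operated and from 4.69 to 12.2 in TBI rats, and it was not tested there because its mean was under 10. With all 24 libraries in 1 fit, the adjusted p of its cortical change was 0.0506 by limma. The loci of a chromosome are numbered in 2 series. On chromosome 9 the named loci with a RefSeq strand were on the plus strand in 79.9% of the series that holds the first Inpp5d locus and in 15.9% of the series that holds the second. The files themselves give no strand for either locus, and what transcript the second locus measures was not tested. With the same span, fragments of either locus could have been counted at the other. The part of this in the cortical values of Inpp5d and in its differences between regions was not tested.

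**Figure D2:**
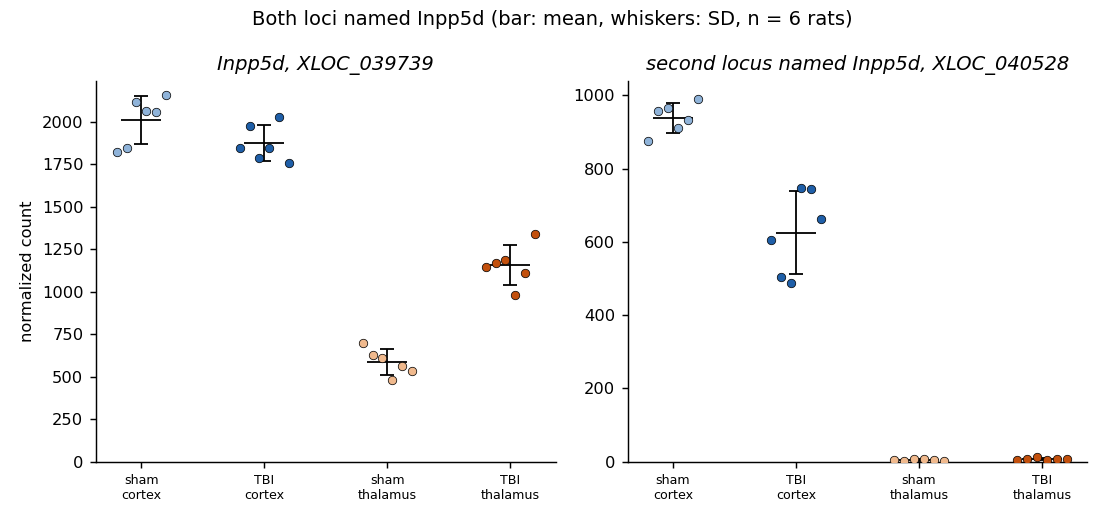
Normalized count (vertical axes, starting at 0) at both loci named Inpp5d in the 24 libraries, with means (bars) and SD (whiskers) of 6 rats. The first locus overlaps between TBI and sham in the cortex and separates in the thalamus; the second is lower in all 6 TBI cortex libraries and stays at or under 12.2 in the thalamus.

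Counted together, 7 of the 9 genes were higher in TBI cortex at an adjusted p under 0.05 by limma and 0 were lower, against a background of 14.3% of 15493 loci higher and 14.9% lower. At an unadjusted p under 0.05 and by edgeR, the count was also 7 higher and 0 lower. Their median log2 fold change was 0.48, and that of all loci tested was -0.0096. In the thalamus 9 of 9 were higher, where 14.5% of 15564 loci were higher, and the median log2 fold changes were 1.15 for the 9 genes and -0.023 for all loci. All TBI values exceeded all sham values for 4 genes in the cortex (7.02% of all loci) and 7 in the thalamus (7.46% of all loci). The scaling between libraries moved the share of higher loci among all called loci of the thalamus from 41.0% to 54.3% under TMM scaling, while all 9 genes were called higher under both.

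**Figure D3:**
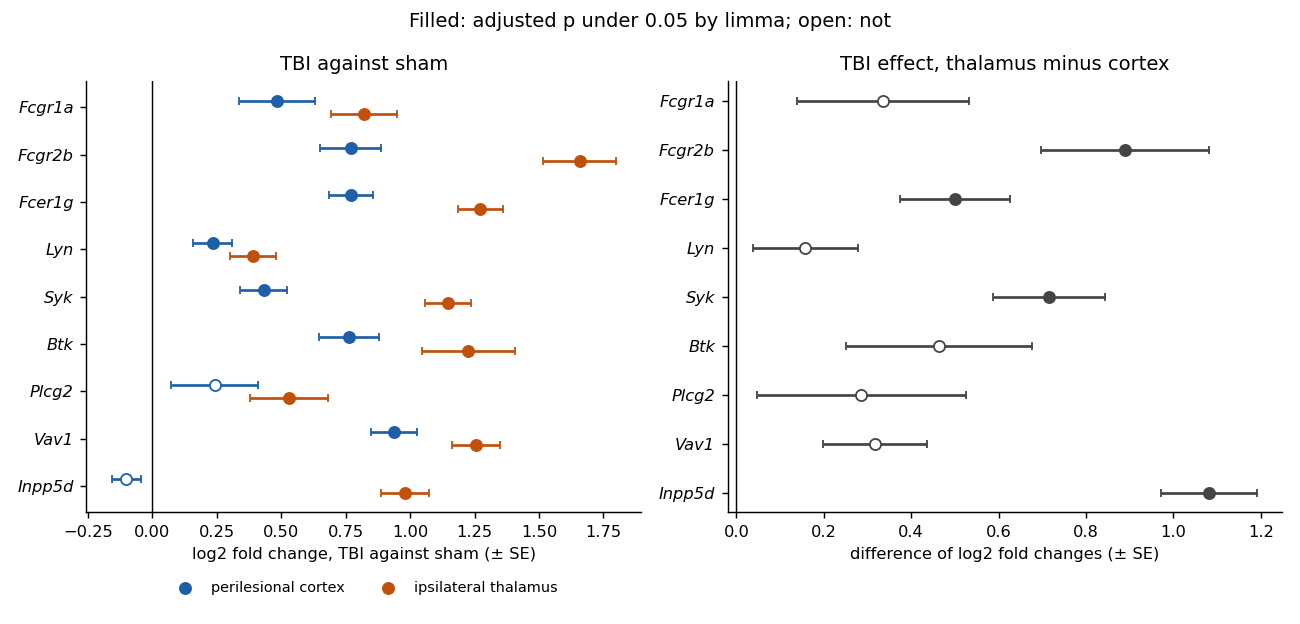
Left, log2 fold change of TBI against sham (horizontal axis, whiskers SE) in the perilesional cortex and the ipsilateral thalamus for the 9 genes; right, the difference of these effects, thalamus minus cortex. Filled points passed an adjusted p of 0.05 by limma (n = 6 rats per group); the effect is larger in the thalamus for all 9 genes and the difference is called for Fcgr2b, Fcer1g, Syk and Inpp5d.

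Whether TBI acted more strongly in either region was tested over the 24 libraries as an interaction. The effect was larger in the thalamus at an adjusted p under 0.05 for 4 of the 9 genes, against 2.72% of 15678 loci. The difference was 1.08 on the log2 scale for Inpp5d (SE 0.11, adjusted p = 7.8e-07) and 0.89 for Fcgr2b (SE 0.19, adjusted p = 0.0058, both by limma). For Syk it was 0.72 (SE 0.13, limma adjusted p = 0.0011). For Fcer1g it was 0.50 (SE 0.13, limma adjusted p = 0.015), and the call was lost without sham rat 55 (adjusted p = 0.0516 by limma). The other 5 genes had differences from 0.16 (Lyn, SE 0.12) to 0.46 (Btk, SE 0.21) that did not pass the threshold. Of 14 markers of microglia, 9 also had a larger effect in the thalamus and 0 a smaller one, with a median difference of 0.45 against 0.46 for the 9 genes, and the part of these cells in the difference was not tested.

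Without injury 6 of the 9 genes differed between the regions at an adjusted p under 0.05 by limma, where 62.2% of all loci did, so the count is near the background. In sham-operated rats, Lyn, Plcg2, Fcer1g and Vav1 were higher in the thalamus than in the cortex, against 33.9% of 15582 loci higher, and Inpp5d and Syk were lower, against 28.3% lower. The log2 differences, thalamus minus cortex, were 0.50 for Lyn (SE 0.083, adjusted p = 6.8e-05), 0.49 for Plcg2 (SE 0.10, adjusted p = 0.00054), 0.35 for Fcer1g (SE 0.081, adjusted p = 0.0013, all by limma) and 0.29 for Vav1 (SE 0.094, limma adjusted p = 0.013). Inpp5d was lower by far, with a difference of -1.78 (SE 0.082, limma adjusted p = 3.2e-11) and no overlap, and Syk had a difference of -0.26 (SE 0.091, limma adjusted p = 0.021). The second Inpp5d locus, near the detection limit in the thalamus, had a difference of -7.33 (SE 0.24, limma adjusted p = 6.4e-13). Its part in the difference of Inpp5d was not tested. The call of Syk was lost without sham rat 32 (limma adjusted p = 0.0518) or sham rat 38 (0.0575), and that of Vav1 without sham rat 34 (0.0540). In the same comparison 5 of 14 microglial markers were higher in the thalamus and 0 lower (median log2 difference 0.29), as were 6 of 6 oligodendrocyte markers (1.59). Of 3 mast cell markers tested 2 were higher and 1 lower (3.72). Their part in the differences between regions was not tested.

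Markers of microglia moved with these genes. The shares over all loci were 14.3% (cortex) and 14.5% (thalamus) higher, and 14.9% and 20.9% lower. Of 14 microglial markers, 11 were higher in TBI cortex and 13 in TBI thalamus, and 0 were lower in either. Their median log2 fold changes were 0.50 and 0.92. Their summed normalized count was 16948 to 18341 in sham and 22821 to 24510 in TBI cortex, and 18325 to 22751 in sham and 35812 to 45043 in TBI thalamus. The genes were therefore also compared after the mean log2 level of these 14 markers had been subtracted in each library.

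On that scale 4 of the 9 genes were higher and 2 lower in TBI cortex, against 2.92% and 76.1% of 15493 loci. Because the markers rose, the subtraction lowers most loci, with a median of -0.47 over all loci, so these shares are set by it. Of the 14 markers themselves, 5 were higher and 3 lower on this scale in the cortex. Vav1 had a log2 fold change relative to the markers of 0.47 (SE 0.098, limma adjusted p = 0.00026), followed by Fcer1g, Fcgr2b and Btk with 0.31, 0.30 and 0.30. Inpp5d was at -0.57 (SE 0.068, adjusted p = 9.4e-07) and Lyn at -0.23 (SE 0.074, adjusted p = 0.0084, both by limma). In the thalamus 3 of the 9 genes were higher and 2 lower, against 1.14% and 90.4% of 15564 loci. The median of all loci was -0.97 there, and 2 of the 14 markers were higher and 2 lower. Fcgr2b was at 0.71 (SE 0.14, adjusted p = 6.1e-05) and Lyn at -0.56 (SE 0.10, adjusted p = 4.5e-05, both by limma). Fcer1g had a value of 0.33, Vav1 of 0.31 and Plcg2 of -0.42. Inpp5d had a value of 0.033 in the thalamus (SE 0.095, limma adjusted p = 0.74).

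Several of these relative calls depended on the markers and libraries used. Against the 7 markers left after homeostatic genes such as P2ry12 and Tmem119 had been removed, an alternative chosen after seeing the data, Fcer1g and Vav1 were the genes called higher in the cortex and Fcgr2b was the gene called higher in the thalamus. The cortical call of Fcgr2b was also lost without sham rat 32, 34 or 55 or TBI rat 22, 24 or 45 (limma adjusted p from 0.0513 to 0.0652). That of Btk was lost without sham rat 38 or 50 or TBI rat 22 or 45 (limma adjusted p from 0.0544 to 0.0721) and against Csf1r, Itgam and Aif1 alone (0.0747). In the thalamus Plcg2 lost its call without sham rat 38 (limma adjusted p = 0.0684), sham rat 55 (0.0615) or TBI rat 56 (0.0881), and Vav1 lost it without sham rat 32 (0.0551) and against Csf1r, Itgam and Aif1 alone (0.108). Syk gained a call without sham rat 55 (0.0441) and Btk without TBI rat 63 (0.0482).

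**Figure D4:**
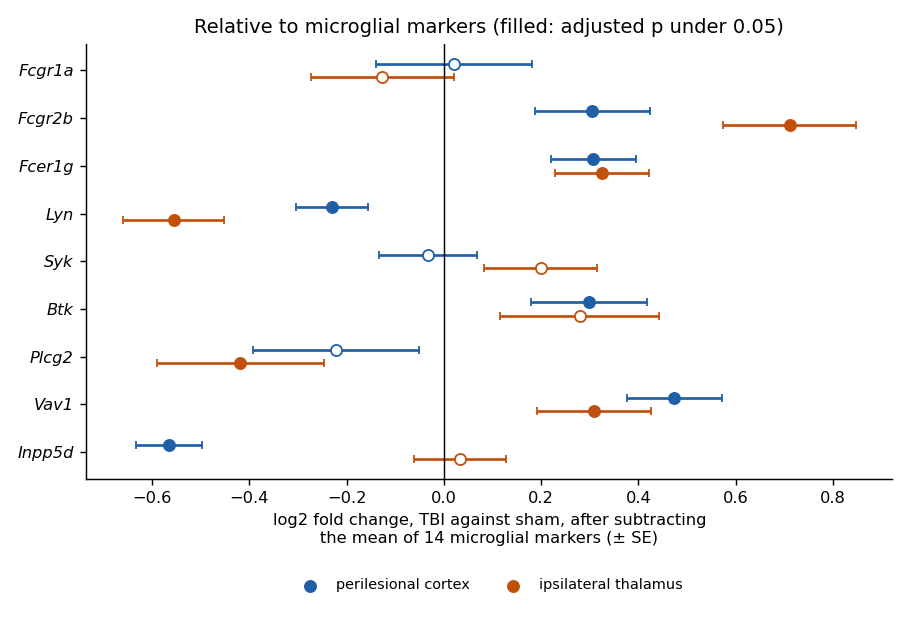
Log2 fold change of TBI against sham after subtraction of the mean log2 level of 14 microglial markers in each library (horizontal axis, whiskers SE) for the 9 genes in both regions. Filled points passed an adjusted p of 0.05 by limma (n = 6 rats per group); Fcgr2b lies above the markers and Lyn under them in both regions, and Inpp5d lies at -0.57 in the cortex and 0.033 in the thalamus.

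Other cells that use these genes were looked for by their markers. By limma, 14.3% (cortex) and 14.5% (thalamus) of all loci tested were higher, and 14.9% and 20.9% lower. Of 5 B and plasma cell markers 0 reached the minimum mean in either region, and their summed normalized count was between 4.15 and 29.7 in every library. The 6 NK cell markers summed to between 5.59 and 29.7. Of 7 T cell markers 4 could be tested in the cortex and only Cd4 in the thalamus. Cd4 was the T cell marker that was higher in each region, with log2 fold changes of 0.78 and 1.78, and rat microglia and macrophages also express it. The T cell list summed to between 732 and 924 in sham cortex and 1305 and 1617 in TBI cortex. It summed to between 714 and 1082 in sham thalamus and 2523 and 4187 in TBI thalamus. Every marker of the list but Cd4 had a mean under 10 in the thalamus, so the thalamic sums are mostly Cd4. The mean log2 level of the list overlapped between sham (3.21 to 3.76) and TBI cortex (3.64 to 4.41). It also overlapped between sham (2.64 to 3.18) and TBI thalamus (2.68 to 3.89). Of 7 neutrophil markers 2 could be tested in the cortex and 3 in the thalamus. Csf3r alone of these was called higher, with 0.75 in the cortex and 1.30 in the thalamus. S100a9 (0.072 in the cortex and 0.62 in the thalamus) and Camp (-0.20 in the thalamus) did not pass the threshold by limma. Elane was at or under 3 fragments in every library. Mcpt1 was the mast cell marker at or under 3 fragments in every library, and 0 of the 3 mast cell markers tested in the thalamus and 0 of 1 in the cortex passed the threshold by limma. At an unadjusted p under 0.05 the count was also 0, and edgeR called 1 lower in the thalamus.

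Perivascular macrophage markers passed the threshold in 3 of 5 cases in TBI cortex (Mrc1, F13a1 and Stab1) and in 0 of 5 in TBI thalamus by limma, where 1 had an unadjusted p under 0.05 and edgeR called 0. Their summed count was 910 to 1186 in sham and 1200 to 2302 in TBI cortex, and 1246 to 1698 and 1095 to 3779 in the thalamus. Of 5 platelet markers 2 could be tested, and both were higher in the cortex. In the thalamus 0 of these 2 passed the threshold by limma or edgeR, and 1 had an unadjusted p under 0.05. Of the brain cell lists, neuronal markers were lower in 7 of 10 cases in the cortex and 9 of 10 in the thalamus. In each region 4 of 7 astrocyte markers were higher, with 2 lower in the cortex. Over all loci, 14.3% (cortex) and 14.5% (thalamus) were higher, and 14.9% and 20.9% lower. With 7 astrocyte markers, 2 lower in the cortex lies near that share. Of 7 choroid plexus markers 0 passed the threshold by limma or edgeR in either region, and 1 had an unadjusted p under 0.05 in the cortex. Their summed count varied widely between libraries of a group. It was 635 to 23258 in sham and 813 to 31763 in TBI cortex, and 602 to 107020 and 708 to 257230 in the thalamus. The part of each of these cell types in the results above was not tested.

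The same kinds of change were looked for in lists of related genes. Of 18 other ITAM-coupled receptors and adaptors, 6 could be tested, and 5 were higher and 0 lower in each region, also at an unadjusted p under 0.05 and by edgeR. The median was 0.88 for the cortex and 1.19 for the thalamus on the log2 scale. Among all loci tested, 14.3% (cortex) and 14.5% (thalamus) were called higher, and 14.9% and 20.9% lower. Clec7a, the beta-glucan receptor Dectin, had the largest rise of this list, from a mean normalized count of 16.4 ± 5.12 (SD, n = 6) in sham to 144 ± 34.8 in TBI cortex, and its thalamic change was 5.51 on the log2 scale. In the thalamus its sham mean of 9.88 was under the minimum of 10, which it passed through the TBI libraries. Tyrobp, the ITAM adaptor of Trem2, rose from 426 ± 24.0 to 867 ± 126 in the cortex and from 544 ± 84.0 to 1469 ± 229 in the thalamus.

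Of 19 genes listed by name as inhibitory (ITIM) receptors, 15 were tested. Whether each of them carries the motif was not checked. In the cortex 9 were higher and in the thalamus 11 (13 by edgeR), and 0 were lower in either by limma, by edgeR or at an unadjusted p under 0.05. Their medians were 0.74 and 1.38. By limma, the background was 14.3% (cortex) and 14.5% (thalamus) of loci higher, and 14.9% and 20.9% lower. Cd22, a sialic acid binding receptor, rose from 39.6 ± 12.9 to 241 ± 39.7 in the cortex and from 85.1 ± 15.7 to 867 ± 273 in the thalamus. Clec12a rose from 20.8 ± 9.06 to 81.1 ± 16.1 and from 26.8 ± 8.93 to 176 ± 46.0. Both separated the groups without overlap in each region.

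Among 10 tested kinases of the Src, Syk and Tec families other than Lyn, Syk and Btk, 2 were higher in the cortex, and 3 were higher and 1 lower in the thalamus, with medians of 0.074 and 0.11. Of all loci tested 14.3% were higher in the cortex, and 14.5% were higher and 20.9% lower in the thalamus, so with 10 kinases these counts lie near the background. The myeloid Src family kinase Fgr had the largest rise in both regions, by 0.84 on the log2 scale for the cortex and by 1.51 for the thalamus. Src itself fell in the thalamus, with a mean normalized count of 9572 ± 614 in sham-operated and 7318 ± 512 in TBI rats.

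Of 22 tested adaptors and effectors, 10 were higher and 1 lower in the cortex and 14 were higher and 3 lower in the thalamus, with medians of 0.26 and 0.50. Background shares of higher loci were 14.3% (cortex) and 14.5% (thalamus), and those of lower loci were 14.9% and 20.9%. The counts of lower adaptors and effectors therefore do not exceed the background. Was and Rac2, which act on actin, had the largest rises in the cortex with log2 fold changes of 0.77 and 0.72. The adaptors Lat2 and Blnk had the largest in the thalamus with 1.44 and 1.31. Prkcb, a protein kinase C isoform that neurons also express, was lower in both regions (-0.35 and -0.47), and Prkcd was lower in the thalamus (-0.82). The adjusted p of these changes after TBI was between 2.3e-08 (Lat2) and 0.00077 (Was) by limma. In sham-operated rats Prkcd was higher in the thalamus than in the cortex by 5.15 (SE 0.098, limma adjusted p = 2.2e-15). Which cells account for the thalamic fall of Prkcd was not tested.

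Of 15 tested negative regulators, 4 were higher and 3 lower in the cortex and 6 were higher and 2 lower in the thalamus, with medians of 0.20 and 0.21. The shares of all loci were 14.3% higher and 14.9% lower in the cortex, and for the thalamus 14.5% higher and 20.9% lower, so the counts of lower regulators lie near the background. Ptpn6, the phosphatase that ITIMs recruit, rose from a mean normalized count of 269 ± 29.5 to 480 ± 38.7 in the cortex and from 325 ± 29.9 to 742 ± 62.9 in the thalamus. Dok1 also rose in the cortex (0.65) and the thalamus (0.80), and Sla rose in the thalamus (1.19). Sla2 fell in both regions (-0.67 and -0.44), as did Ubash3b (-0.25 in the cortex and -0.52 in the thalamus).

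Of 11 genes for immunoglobulins and their handling, 4 were tested. Ptx3, a pentraxin that Fc receptors bind, was higher in both regions at low counts. Its mean was 4.38 ± 2.77 in sham and 15.6 ± 6.74 in TBI cortex, and 4.8 ± 2.30 and 20.6 ± 7.03 in the thalamus. In both regions the sham mean was under the minimum mean for testing, which Ptx3 passed through the TBI libraries. Fcgrt, the receptor that recycles IgG, was higher in the cortex (1340 ± 42.1 and 1936 ± 280). By limma neither Igkc nor the locus that joins Ighe with other heavy chain names passed the threshold in either region. By edgeR Igkc was called higher in the cortex (adjusted p = 0.0496) and Fcgrt also in the thalamus (adjusted p = 0.0363), and the Ighe locus was called in neither.

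**Figure D5:**
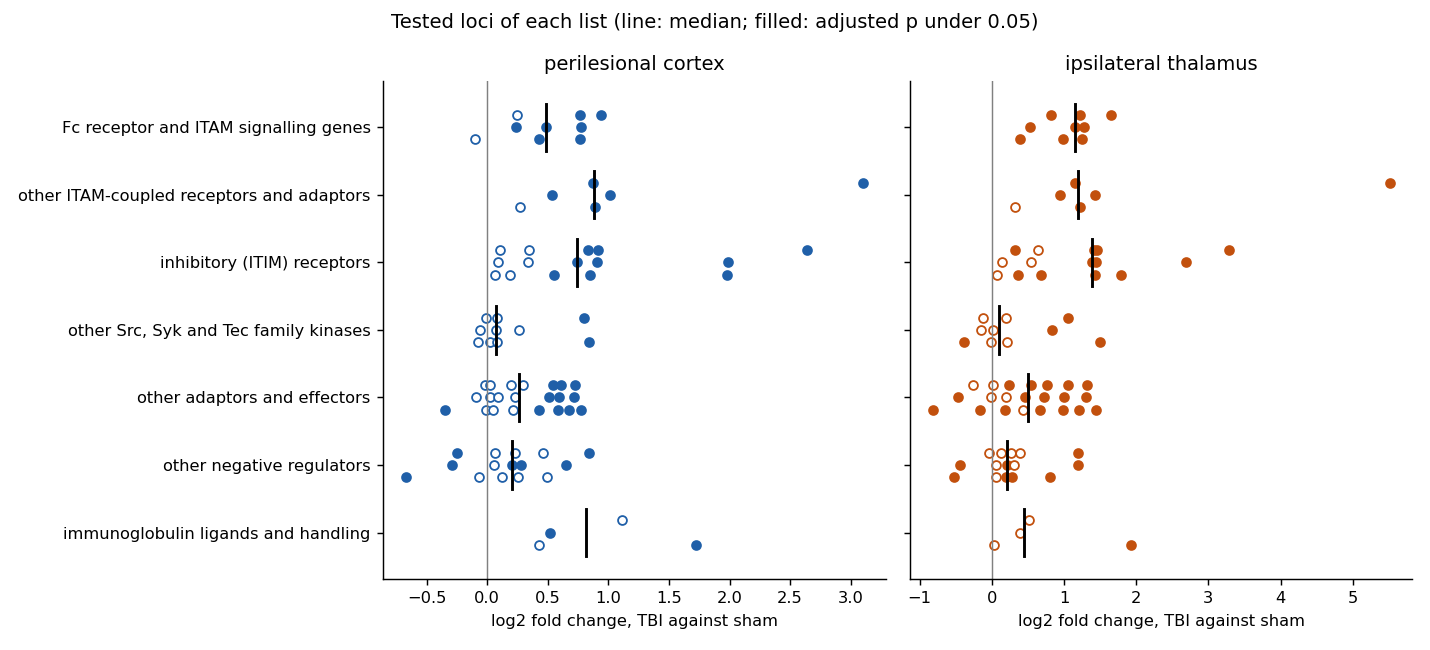
Log2 fold change of TBI against sham (horizontal axes) of each tested locus in 7 lists, in the perilesional cortex (left) and the ipsilateral thalamus (right); points are loci, vertical lines are list medians, and filled points passed an adjusted p of 0.05 by limma. The medians of the receptor lists lie above 0.7 in the cortex and above 1.1 in the thalamus, and those of the kinases other than Lyn, Syk and Btk lie near 0.

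How the genes varied from rat to rat was described after the mean of each group had been subtracted. Over the 24 libraries, 32 of the 36 pairs of the 9 genes had a positive Pearson correlation, with a median of 0.29 and a range from -0.062 to 0.69. The highest was that of Fcgr2b with Lyn, and the 4 negative pairs all included Plcg2. The points share libraries, rats, dissection and depth, so these are descriptions. TBI rat 52 had the lowest value among TBI thalamus libraries for 6 of the 9 genes, and sham rat 38 had the lowest of sham thalamus for 5. TBI rat 45 had the highest of TBI cortex for 5.

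The 3 most similar of 15678 named loci on this measure are given for each gene, and they included C1qb, Aif1, Mpeg1 or Csf1r, genes known from microglia, for Fcer1g, Lyn and Inpp5d. Fcer1g was most like Tmem176a (r = 0.84), Pld4 and the complement gene C1qb, and Lyn was most like Lgmn (0.82), Aif1 and Mpeg1. Fcgr2b was most like Mob3c (0.82), Plek and Emr1, and Inpp5d was most like Csf1r (0.79), Clec5a and RGD1561145. For Vav1 the nearest were Hvcn1 (0.73), Ptpn6 and Dock8. Fcgr1a was nearest to Mgst1 (0.70), Tmem87a and Ifit1lb, and Btk to Miip (0.83), Ggt1 and Ppfibp2. Syk was nearest to Zhx2 (0.77), Txlna and Cd44. Plcg2 stood with 3110057O12Rik (0.83), Arhgef11 and Arhgap21, and the second Inpp5d locus with Rpgrip1l (0.76), Plekhf2 and Ctf1.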

How the data were processed

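The 24 messenger RNA libraries came from 2 brain regions of 12 rats, grouped by their labels. Per the labels and the methods, the authors enriched polyadenylated RNA, made stranded libraries, aligned reads with TopHat2 2.0.11 and Bowtie2 2.2.2 and assembled transcripts with Cufflinks 2.2.1. The deposited values are signal in the form of fragment counts divided by 1 size factor per library. Dividing by the value of 1 fragment gave whole numbers (within 0.1) for 100% of values up to 1000 fragments, and a 3-fragment limit covers counting error only. Precision follows from 30568927 to 54608921 fragments per library.

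TBI was compared with sham on log2(normalized count + 1) by limma 3.58.1 (lmFit, and eBayes with a mean trend) in R 4.3.3, for named loci with a mean of at least 10, with Benjamini-Hochberg adjustment over all loci tested and a threshold of 0.05. This log2 scale understates changes of low genes. The study itself used Cuffdiff, which needs alignments. The p-values of TBI against sham within a region measure the spread between rats. In the interaction and in the comparison of regions in sham-operated rats, the main fits treated the 2 libraries of a rat as independent. The fits were tested on simulated data with known changes, drawn without a link between the 2 libraries of a rat. That simulation therefore could not check the treatment of these libraries as independent. Rat numbers in the labels tie the 2 regions of an animal together. Deviations from the group means correlated within a rat with a median of 0.187 (0.00393 to 0.569, 10 of 12 over 0.1), and the rat as a block was an alternative fit. edgeR 4.0.16 was run on the recovered fragments as an alternative chosen after seeing the data, and it called 2351 loci higher and 2084 lower in the cortex. The thalamic numbers were 2822 and 2300.

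The 9 genes, the lists of related genes and the cell type markers were chosen with earlier results of these data known. All 9 genes are named, and of each related list the 2 largest rises and the 2 largest falls past the threshold in each region. Some genes that this rule names are not reported here. For each gene the 3 most similar loci are given. Of the list genes, Cd79a, Pirb, Pilra, Dock2, Mbp and several immunoglobulin chains were not matched to a locus, and protein sequences were not used here. Tables were read with pandas 2.3.3 and figures drawn with matplotlib 3.10.9 in Python 3.11.15.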

Additional observations from a re-analysis of the deposited data

Results flagged for a closer look

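In 4 of the 40 groups of 6 libraries examined (the 9 genes and the second Inpp5d locus in each group), 1 library stood apart by the ratio of its gap to the range, above Dixon's limit. Chance gives about 1 in 20 groups, or 2 here. TBI rat 52 was lowest in the thalamus for Fcgr1a (ratio 0.673) and Lyn (0.755) and lowest in the cortex for Vav1 (0.681), and sham rat 55 was lowest in the cortex for Lyn (0.699). Without rat 52 the log2 fold changes were 0.91 for Fcgr1a and 0.46 for Lyn in the thalamus and 0.99 for Vav1 in the cortex, all called by limma. Without sham rat 55 that of Lyn in the cortex was 0.18 and was not called.

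The effect of TBI differed between the regions for 4 genes in the interaction test by limma, with a thalamus minus cortex difference of 1.08 for Inpp5d, 0.89 for Fcgr2b, 0.72 for Syk and 0.50 for Fcer1g. With the rat as a block the adjusted p was 0.00015 for Inpp5d, 0.0019 for Fcgr2b, 0.0011 for Syk and 0.036 for Fcer1g.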

How the results depend on the processing

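Each gene was refitted under up to 22 alternatives per comparison, 1083 values in all with the second Inpp5d locus: 1025 kept direction and side of the threshold, 39 lost the call, 10 gained it and 9 turned in sign. With each library left out the number of the 9 genes called higher was 5 to 7 in the cortex and 9 in the thalamus, and edgeR gave 7 and 9. The rat as a block called 504 loci higher and 797 lower in the interaction, 4 of the 9 genes among them, and changed no call of the 9 genes. At an adjusted p under 0.01 the loci called were 2436 in the cortex, 3429 in the thalamus and 404 in the interaction, and 1 gene stayed lower in sham thalamus. Leaving out rats gave 690 (without TBI rat 24) to 1204 loci in the interaction, with 695 without sham rat 50, and 1 to 2 genes lower in sham thalamus. Relative to microglial markers it gave 2 to 4 genes higher in the cortex and 1 to 2 lower in the thalamus. The markers without homeostatic genes, chosen after seeing the data, gave 2 genes higher in the cortex and 1 in the thalamus. The relative value of Fcgr1a in the cortex turned to -0.017, -0.047 and -0.085 without sham rats 26, 32 and 34, to -0.013 without TBI rat 45 and to -0.074 with those markers. It lay between -0.085 and 0.13 over the rats left out. That of Syk turned to 0.0071 without sham rat 32 and 0.019 without TBI rat 63, between -0.093 and 0.019 over the rats left out. In the thalamus that of Inpp5d turned to -0.033 against Csf1r, Itgam and Aif1 alone and to -0.14 without the homeostatic genes. None of these values passed the threshold. The cause was not tested. Of the loci the interaction called, 37.5% had a higher value and with edgeR 51.9%. Genes with low counts such as Btk and Fcgr1a carry more counting error.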
